A study of Mus musculus with 6 samples.

Results

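Peroxiredoxins are thiol enzymes that break down hydrogen peroxide, and sulfiredoxin is the enzyme that repairs them. They were followed here as the genes Prdx1, Prdx2, Prdx3, Prdx4, Prdx5, Prdx6 and Srxn1, by taking every probe set of the array whose annotated symbol is one of these 7. The rule found 11 probe sets with 1 symbol, for 4 of the 7 genes (Prdx2, Prdx3, Prdx4 and Srxn1), out of 45037 probe sets and 18193 genes measured. A further 5 probe sets carry the symbol of Prdx1 together with that of its pseudogene Gm21399, and are given as a joint reading of the pair. Prdx5 and Prdx6 were not analysed here, since no probe set carries either symbol in the annotation used.

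The cells were CT26, a colon carcinoma line from the BALB/c mouse strain. The control group (3 arrays) had been transfected with the empty vector pU6-m3. The shSep15 group (3 arrays) had received pU6-m3 carrying 1 short hairpin against Sep15, the selenoprotein of the endoplasmic reticulum now called Selenof. Both groups share the line and the vector. The hairpin held 19 bases of the mouse Sep15 cDNA, shown because all differences below rest on this single construct.

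shSep15 hairpin target: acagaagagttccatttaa

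Each array was an Affymetrix Mouse430_2 chip hybridised with labelled RNA of a different mRNA sample, and values are log2 RMA values, that is, background-corrected, normalised between arrays and summarised per probe set. Whether the transfected cells were 1 clone or a pool, and whether the samples came from separate cultures, is not stated in the labels, so p-values measure only the spread between these samples, which may be technical. Selenof itself read 12.41, 12.44 and 12.35 on the control arrays and 9.34, 9.59 and 9.50 on the shSep15 arrays, which left 13.2% of the control signal (log2 difference −2.92, SE 0.08, limma adjusted p = 2.43e-07). Array medians lay between 5.83 and 5.87. The log2 level of 6.02, below which 95% of 78 olfactory and vomeronasal receptor probe sets lay, is called the background level. The other Selenof probe set, 1454525_at, had means of 4.71 in control and 4.7 in shSep15 cells, under this level, and gives no reading. Of 8 colon epithelial markers, 5 were above the background level in at least 1 group, while Cdh1, Cdx2 and Vil1 were under it in both. The summed level of the 8 was 9.69 to 9.92 in control and 8.81 to 9.10 in shSep15 arrays. Krt18, Krt20 and Lgals4 fell while 0 rose. The shSep15 means of Krt18 and Lgals4, 4.48 and 5.84, were under the background level. All 6 mesenchymal markers were above it in at least 1 group, with a summed level of 13.84 to 13.90 in control and 13.88 to 13.98 in shSep15 arrays. That sum is mostly Vim, with means of 13.43 in control and 13.66 in shSep15 cells, and hides changes of the others. Vim and Col1a1 rose (log2 differences 0.23 and 1.32), while Col3a1, Pdgfrb and Zeb1 fell (−2.27, −3.36 and −0.61). The shSep15 mean of Pdgfrb, 5.69, was under the background level. Of 5 leukocyte markers 2 were above it, Cd3e and Lyz2, and Ptprc, the defining one, was under it; the summed level of the 5 was 8.19 to 8.34 in control and 8.04 to 8.18 in shSep15 arrays, and Lyz2 fell by 0.47, as did Itgam, under background in both groups, by 0.37 (limma adjusted p = 0.0166 and 0.0204). Of 4 endothelial markers 1, Kdr, was above it. The part of these markers in the results below was not tested. In RNA from bulk cells, fewer cells of a type and less RNA per cell cannot be told apart.

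A peroxiredoxin attacks peroxide with a reactive cysteine, which is oxidised to a sulfenic acid and, in most members, closes into a disulfide that thioredoxin reduces again. Under excess peroxide the cysteine can be oxidised further to a sulfinic acid, which stops the cycle until sulfiredoxin restores it with ATP. Members differ by compartment: Prdx1 and Prdx2 work mainly in the cytosol, Prdx3 in mitochondria, and Prdx4 in the endoplasmic reticulum, where it passes oxidising equivalents to protein disulfide isomerases. Peroxiredoxins are often abundant in tumour cells.

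Prdx4 was the member with the largest rise, close to 2-fold, and the probe sets shared by Prdx1 and Gm21399 rose by a smaller amount. Prdx2 was barely past the threshold, and Prdx3 and Srxn1 did not pass it. By brightest probe set, 2 of the 4 genes with their own probe sets rose and 0 fell (limma, adjusted p under 0.05; 3 rose and 0 fell at an unadjusted p under 0.05). At an unadjusted p under 0.05, 3140 of all 18193 genes were higher and 3145 lower. Past the adjusted threshold, 12.2% of all genes were called higher and 12.8% lower. These shares include 7069 genes under the background level in both groups, as 0 of the 4 were, so among expressed genes the shares are larger. In a fit of probe sets above background alone, 2415 genes were called higher and 2426 lower, where 10866 genes other than the members were above background. The median log2 difference of the 4 genes was 0.20, beside 0.01 over all genes. Of the 11 probe sets with 1 symbol 3 were called higher and 0 lower (0 lower also at an unadjusted p under 0.05), where 9.71% of all probe sets were called higher and 9.66% lower. These 3 belong to 2 genes, so they are not 3 separate results. All 9 of the 11 that were above background had a difference above 0. They belong to the same 4 genes, 4 to Srxn1 and 3 to Prdx4, so they are not 9 separate results. The share of all probe sets with a difference above 0 was not counted. On the brightest probe set of each of the 4 genes every shSep15 array was above every control array, as on 19.3% of all genes, and the same held for the 5 probe sets shared by Prdx1 and Gm21399, as for 16.5% of all probe sets.

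**Figure D1:**
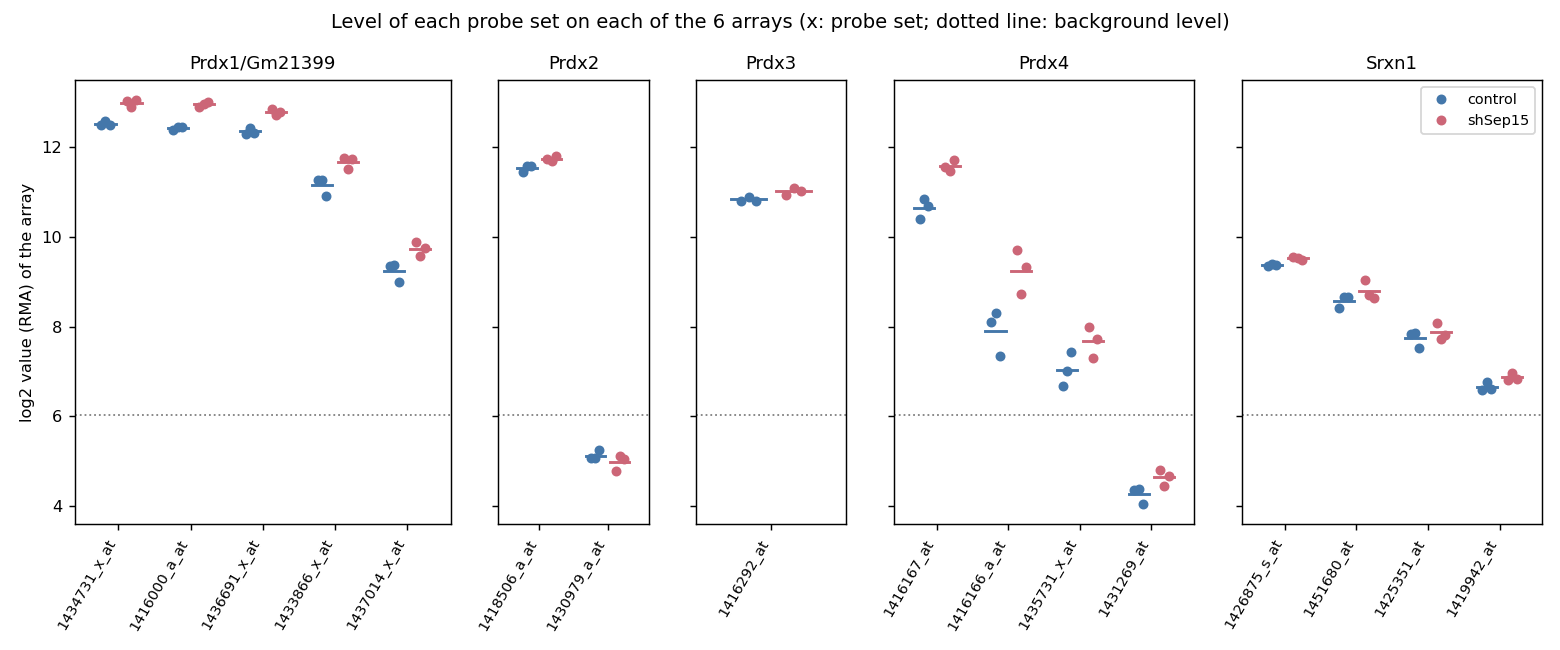
Log2 RMA value (vertical axis) of every probe set of the family (horizontal axis) on each of the 6 arrays, with a bar at each group mean and a dotted line at the background level of 6.02. The 3 shSep15 points lie above the 3 control points on all 5 probe sets shared by Prdx1 and Gm21399 and on the brightest probe set of each of the other genes.

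Prdx4, the secreted and endoplasmic reticulum member, lies in the same compartment as the Sep15 protein. Its brightest probe set, 1416167_at, read 10.39, 10.84 and 10.70 on the control arrays and 11.57, 11.48 and 11.72 on the shSep15 arrays. All 3 shSep15 arrays were above all 3 control arrays, with a gap wider than the spread within either group (SD 0.23 and 0.12, n = 3 each). The log2 difference was 0.95 (SE 0.12, limma adjusted p = 0.000433), a 1.93-fold rise with a 95% interval of 1.61 to 2.31. By size of rise this was place 494 of 18193 genes. Leaving out any 1 array gave log2 differences of 0.82 to 1.04, all past the threshold.

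The other Prdx4 probe sets differed in the same direction but not by the same amount. Probe set 1416166_a_at read 8.09, 8.30 and 7.34 in control and 9.71, 8.72 and 9.32 in shSep15 arrays. Its difference was the widest of the family (log2 1.34, SE 0.29, limma adjusted p = 0.00995), and so was its spread, with an SD of 0.50 in each group. Probe set 1435731_x_at, of the kind whose probes may match other transcripts, read 6.67, 7.01 and 7.44 in control and 7.99, 7.30 and 7.73 in shSep15 arrays. Here the groups overlapped, shSep15 2 lying below control 3, and the difference of 0.63 did not pass (limma adjusted p = 0.0873). Without control 3 it was 0.83 and passed (limma adjusted p = 0.0329). The fourth probe set, 1431269_at, stayed under the background level on every array, at 4.04 to 4.38 in control and 4.45 to 4.79 in shSep15 arrays (log2 0.38, limma adjusted p = 0.0532; 0.48 and adjusted p = 0.0360 without shSep15 2). Control 3 was the lowest control array on 1416166_a_at and 1431269_at but the highest on 1435731_x_at. The 3′ minus 5′ signal of the array controls, a sign of RNA integrity, was −0.12 to −0.08 for Gapdh and 0.25 to 0.31 for Actb in control arrays. It was −0.10 to −0.01 and 0.20 to 0.31 in shSep15 arrays, so the groups overlapped in both.

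**Figure D2:**
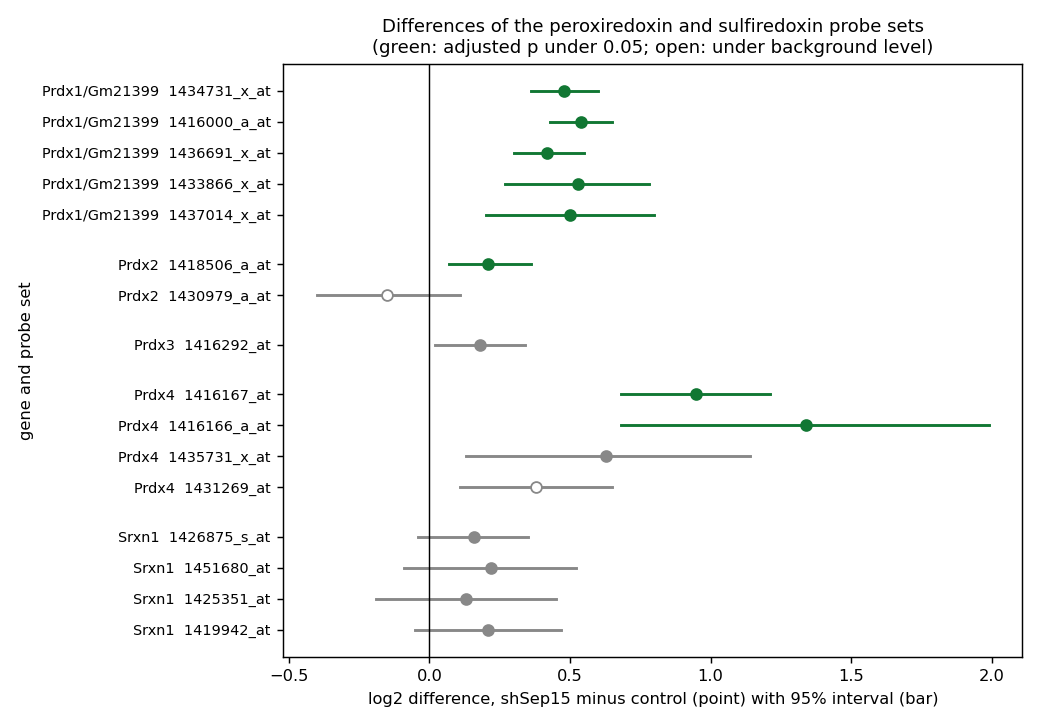
Log2 difference, shSep15 minus control (horizontal axis, point), with its 95% interval from limma (bar) for each of the 16 probe sets of the family (vertical axis); green marks adjusted p under 0.05 and open points lie under the background level. The interval of Prdx4 on 1416167_at lies above those of Prdx2, Prdx3 and Srxn1 on their brightest probe sets.

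Prdx1 is the abundant cytosolic peroxiredoxin, and its probe sets carry the symbol of Gm21399 as well. The probe set 1416000_a_at, whose design accession is the Prdx1 mRNA in RefSeq, read 12.38, 12.46 and 12.45 in control and 12.90, 12.98 and 13.02 in shSep15 arrays. Spread within groups was small (SD 0.05 and 0.06, n = 3 each), and the difference was 0.54 (SE 0.05, limma adjusted p = 8.04e-05), or 1.45-fold with a 95% interval of 1.34 to 1.56. The 4 other shared probe sets, all of the kind whose probes may match other transcripts, gave log2 differences of 0.42 to 0.53, and in each the groups did not overlap. The call of 1437014_x_at, the dimmest of these at 9.24 in control and 9.74 in shSep15 cells, ended without control 3, shSep15 1 or shSep15 3 (limma adjusted p from 0.0671 to 0.101). That of 1433866_x_at ended without shSep15 3 (limma adjusted p = 0.0502). These 5 probe sets read the same genes, so their likeness is not 5 separate measurements.

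Prdx2, a cytosolic member known for its abundance in red blood cells, read 11.44, 11.58 and 11.59 in control and 11.74, 11.70 and 11.81 in shSep15 arrays on 1418506_a_at. The groups did not overlap, but the difference was small: log2 0.21 (SE 0.06, limma adjusted p = 0.0478), or 1.16-fold with a 95% interval of 1.05 to 1.28. The call ended when any 1 of the 6 arrays, control 1, 2 or 3 or shSep15 1, 2 or 3, was left out (limma adjusted p from 0.0535 to 0.175, log2 0.17 to 0.24). Its other probe set, 1430979_a_at, was under the background level in both groups (5.12 and 4.97) and gives no reading.

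Prdx3, the mitochondrial peroxiredoxin, has 1 probe set. It read 10.81, 10.90 and 10.81 in control and 10.94, 11.10 and 11.02 in shSep15 arrays. The shSep15 arrays were again all higher, yet the difference of 0.18 (SE 0.07) was not past the threshold (limma adjusted p = 0.129). Its 95% interval, 0.02 to 0.34 before adjustment for the number of probe sets, corresponds to 1.01-fold to 1.27-fold, so a rise as large as that of Prdx4 lies outside it.

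Srxn1, sulfiredoxin, was measured by 4 probe sets above background, and none passed (limma; 0 of the 4 also at an unadjusted p under 0.05). The brightest, 1426875_s_at, read 9.36, 9.39 and 9.37 in control and 9.56, 9.54 and 9.48 in shSep15 arrays. Although the groups did not overlap there, the difference was 0.16 (SE 0.09, limma adjusted p = 0.294), with a 95% interval of −0.04 to 0.35. The other 3 gave 0.13 to 0.22, and on 2 of them, 1425351_at and 1451680_at, the groups overlapped. A doubling of Srxn1 lies outside the interval of each of the 4 probe sets, while no difference at all lies inside it.

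Upstream sequences of Prdx1, Srxn1 and Prdx4 are shown because the first pair of genes are known targets of NRF2, the factor of the antioxidant response, while Prdx4 had the largest rise. Each is the 250 bases before the gene start in RefSeq, build GRCm38.p6, in the gene's direction. Capitals mark matches to TGANNNNGC, a core of the antioxidant response element, on either strand. Prdx1 is chr4:116685349-116685598 (plus strand), Srxn1 chr2:152105274-152105523 (plus strand) and Prdx4 chrX:155338461-155338710 (minus strand).

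Prdx1: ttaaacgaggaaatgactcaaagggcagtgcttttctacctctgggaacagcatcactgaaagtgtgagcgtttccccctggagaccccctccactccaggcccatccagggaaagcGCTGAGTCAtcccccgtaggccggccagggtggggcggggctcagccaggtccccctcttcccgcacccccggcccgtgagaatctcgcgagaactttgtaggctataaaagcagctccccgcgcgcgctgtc

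Srxn1: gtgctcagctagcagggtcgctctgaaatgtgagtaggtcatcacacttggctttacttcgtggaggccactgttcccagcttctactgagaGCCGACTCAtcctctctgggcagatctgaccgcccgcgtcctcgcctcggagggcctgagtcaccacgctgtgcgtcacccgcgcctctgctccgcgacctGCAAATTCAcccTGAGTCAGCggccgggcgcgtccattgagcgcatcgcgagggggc

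Prdx4: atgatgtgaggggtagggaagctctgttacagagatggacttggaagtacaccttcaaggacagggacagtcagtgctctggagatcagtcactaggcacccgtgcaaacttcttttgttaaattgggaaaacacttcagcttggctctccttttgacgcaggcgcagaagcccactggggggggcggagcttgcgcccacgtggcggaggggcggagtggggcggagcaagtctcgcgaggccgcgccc

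Srxn1 held 3 matches, at 158 to 150, 57 to 49 and 45 to 37 bases before the start, and Prdx1 held 1, at 133 to 125. Prdx5 held 1, at 88 to 80, while Prdx4, Prdx2 and Prdx3 held none in this window. The looser core was thus in 3 of 6 member windows. The Prdx1 match, written GCTGAGTCA on the shown strand, also met the stricter core TGACNNNGC. The 2 cores overlap by construction. Over 32851 such windows of the same length, 35.2% held the looser core and 10.2% the stricter one, on either strand, so a match is common. Srxn1 was the member with the most matches, and any link between matches and expression was not tested. The GC box GGGCGG was in 5 of the 6, with 3 copies in Prdx4 and 1 each in Prdx1, Prdx3, Prdx5 and Srxn1, and 32.7% of all windows hold it on either strand. The 6 windows were 55.6% to 69.2% G and C, beside a median of 52.4% over all windows. The motif holds only these letters, so the 32.7% is not a like-for-like share. A match describes letters only.

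Neighbouring genes were read beside each member. Around Prdx1 on chromosome 4, 7 of the 20 nearest expressed genes (10 on each side) rose and 0 fell (limma, adjusted p under 0.05), with a median log2 difference of 0.33. On the whole chromosome 223 of 671 expressed genes rose and 56 fell, with a median of 0.16, beside 0.01 over 10853 expressed genes. The Prdx1 and Gm21399 values of 0.42 to 0.54 thus stand in a stretch that was higher as well, and the part of that stretch in them was not tested. Around Prdx4 on the X chromosome, 3 of 20 rose and 6 fell, and the median was −0.05. On the whole X chromosome 60 of 314 expressed genes rose and 103 fell, also with a median of −0.05. The direct neighbours of Prdx4, Acot9 and Ptchd1, differed by −0.24 and −0.07. Among the 20 the differences ran from −1.1 for Sat1 to 1.08 for Ubqln2, which rose by more than Prdx4 itself. Around Prdx3, near the end of chromosome 19, 7 of 12 fell and 0 rose, with a median of −0.36, while Prdx3 itself differed by 0.18. On the whole of chromosome 19, 76 of 396 expressed genes rose and 90 fell. Around Prdx2 the count was 3 higher and 5 lower of 20, beside 101 higher and 123 lower of 609 on chromosome 8. Around Srxn1 it was 2 higher and 3 lower of 20, beside 115 higher and 189 lower of 870 on chromosome 2.

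**Figure D3:**
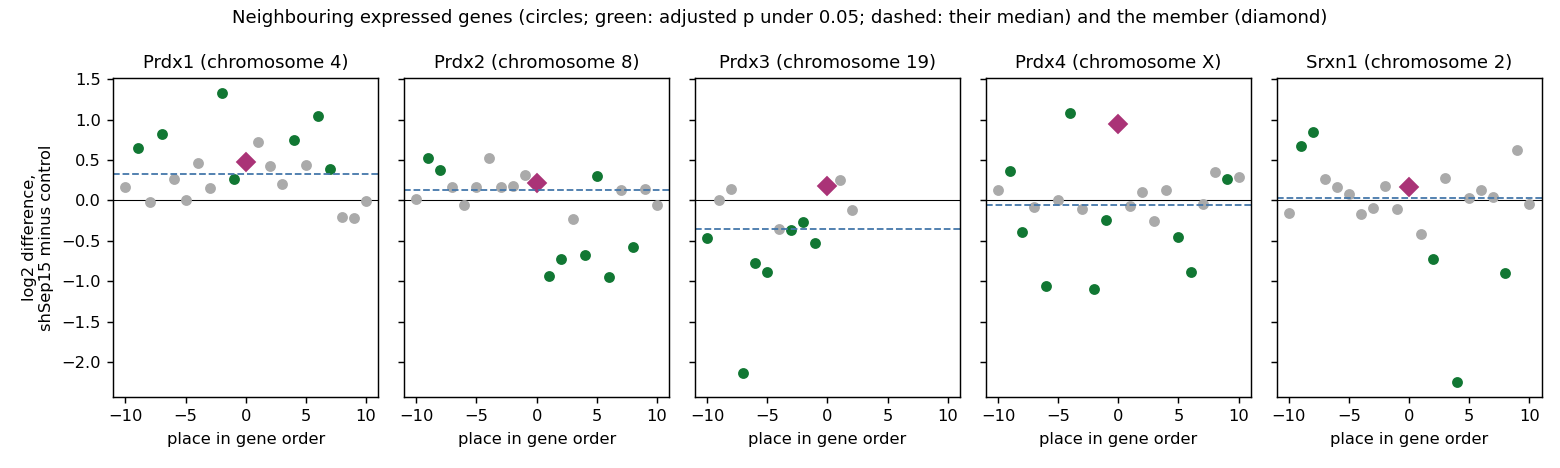
Log2 difference, shSep15 minus control (vertical axis), of the expressed genes nearest to each member by place in gene order (horizontal axis, member at 0); circles are neighbours, green where adjusted p is under 0.05, the dashed line is their median and the diamond is the member (for Prdx1 the brightest probe set shared with Gm21399, 1434731_x_at, at 0.48). Neighbours of Prdx1 have a median of 0.33. Those of Prdx4, itself at 0.95, have a median of −0.05 and run from −1.1 to 1.08.

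The thioredoxin system returns electrons from NADPH to most peroxiredoxins. Of its 7 measured genes 1 rose and 2 fell, with a median of −0.17. The cytosolic donor Txn1 read 12.59, 12.52 and 12.51 in control and 13.23, 13.23 and 13.18 in shSep15 arrays, and rose by 0.67 (SE 0.04, limma adjusted p = 1.13e-05). Txn1 also lies on chromosome 4. Its mitochondrial counterpart Txn2 fell by 0.27 (limma adjusted p = 0.0134), though only 1 of its 2 other probe sets above background passed as well, and the call ended without control 2, shSep15 2 or shSep15 3 (0.0504 to 0.0617). Txnip, which binds and inhibits thioredoxin, fell by 0.49 (limma adjusted p = 0.0428), a call that ended without any 1 array other than control 3 (0.0594 to 0.162). The reductase Txnrd1, a selenoprotein chosen after its values were seen, read 12.10 in control and 11.92 in shSep15 cells (log2 −0.17, limma adjusted p = 0.0802).

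Of 7 measured genes for other reductants and partners, 0 rose and 2 fell (limma; 2 were higher at an unadjusted p under 0.05), with a median of 0.07. The glutathione transferase Gstp1 was lower by 0.19 (limma adjusted p = 0.0193), and the stress-induced sestrin Sesn2 by 0.51 (limma adjusted p = 0.0272). Sesn2, too, lies on chromosome 4. The call of Gstp1 ended without any 1 array other than control 1 (0.0535 to 0.0789), and that of Sesn2 without control 1, control 2, shSep15 1 or shSep15 2 (0.0766 to 0.109).

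Other enzymes that remove peroxide or superoxide were called higher more often than lower: of 10 measured 4 rose and 1 fell, with a median of 0.25, and 3 were near background. Beside this, 12.2% of all genes were called higher and 12.8% lower, and these shares are larger among expressed genes. The cytosolic glutathione peroxidase Gpx1 read 11.25, 11.50 and 11.46 in control and 12.32, 12.40 and 12.30 in shSep15 arrays (log2 0.94, SE 0.07, limma adjusted p = 3.76e-05). Gpx8, a peroxidase of the endoplasmic reticulum like Prdx4, read 10.47, 10.22 and 10.26 against 11.18, 11.14 and 11.04 (log2 0.80, SE 0.09, limma adjusted p = 0.000247). The mitochondrial superoxide dismutase Sod2 rose by 0.72 (limma adjusted p = 9.97e-05). These 3 kept their calls without any 1 array. Catalase, Cat, rose by 0.47 (limma adjusted p = 0.0317), a call that ended without control 2, control 3, shSep15 1 or shSep15 3 (0.0877 to 0.120). Gpx4, which reduces lipid peroxides and was chosen after its values were seen, fell by 0.25 (limma adjusted p = 0.0145). Its 1 other probe set above background did not pass, and the call ended without control 2, shSep15 1 or shSep15 2 (0.0514 to 0.0673).

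Among 10 measured sources of peroxide 2 rose and 2 fell, with a median of 0.05. The oxidase Ero1a, which makes peroxide in the endoplasmic reticulum that Prdx4 can use, read 11.95, 11.90 and 11.72 in control and 10.14, 10.02 and 10.25 in shSep15 arrays. This left 30.4% of the control signal (log2 −1.72, SE 0.09, limma adjusted p = 4.09e-06), and both other probe sets above background fell too. The xanthine dehydrogenase Xdh fell by 1.24 (limma adjusted p = 2.34e-05). The hydroxyacid oxidase Hao1 rose by 2.00 (limma adjusted p = 2.95e-05) from a control mean of 5.72, under the background level, so its size is not exact. Aox1 rose by 0.39 (limma adjusted p = 0.0491), and this call ended without any 1 array other than control 1 (0.0916 to 0.147).

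Genes of oxidative folding, among them protein disulfide isomerases, to which Prdx4 passes oxidising equivalents, were also called higher more often than lower. Of 9 measured 5 rose and 0 fell (limma; 7 higher and 1 lower at an unadjusted p under 0.05), with a median of 0.34. Of all genes, 12.2% were called higher and 12.8% lower at the adjusted threshold. These shares are larger among expressed genes, as all 9 were. Txndc12 rose by 0.65 (SE 0.08, limma adjusted p = 0.000547), Pdia6 by 0.48 (limma adjusted p = 0.00189) and Erp44, which in human cells holds Prdx4 back from secretion, by 0.47 (limma adjusted p = 0.00208). Txndc12 and Erp44 lie on chromosome 4. Pdia3 rose by 0.28 (limma adjusted p = 0.0263), a call that ended without any 1 array other than control 2 (0.0566 to 0.117). P4hb, chosen after its values were seen, rose by 0.16 (limma adjusted p = 0.0421), and its call ended without any 1 of the 6 arrays, control 1, 2 and 3 and shSep15 1, 2 and 3 (0.0554 to 0.155).

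Genes of the NRF2 pathway, which controls Prdx1 and Srxn1 in mouse cells, split in both directions: of 20 measured 5 rose and 7 fell, with a median of −0.16. Nfe2l2, the gene of NRF2 itself, named with its values known, differed by −0.17 and did not pass (limma adjusted p = 0.109). Its 1 other probe set above background was called lower. The glutathione synthesis subunit Gclm read 9.47, 9.59 and 9.40 in control and 11.20, 11.15 and 11.35 in shSep15 arrays (log2 1.75, SE 0.09, limma adjusted p = 4.09e-06). Pgd, which makes NADPH, rose by 1.14 (limma adjusted p = 9.54e-06); Gclm lies on chromosome 3 and Pgd on chromosome 4. The transporter Abcc4 fell by 1.52 (limma adjusted p = 2.47e-05) and the small MAF protein Maff, a partner of NRF2, by 1.37 (limma adjusted p = 2.33e-05). Of the other falls, chosen for naming with their values known, the heme oxygenase Hmox1, an NRF2 target, fell by 1.14 (limma adjusted p = 0.000112), and Bach1, a repressor of NRF2 targets, by 1.03. The small MAF proteins Mafg and Mafk each fell by 0.61. Slc7a11, the cystine transporter, fell by 0.83 (limma adjusted p = 0.0126), a call that ended without control 2 or shSep15 2 (0.0610 and 0.0600); its shSep15 mean of 5.97 is under the background level. The other rises, chosen in the same way, were Tkt by 0.51, Keap1 by 0.42 and Abcc1 by 0.31. Keap1, the inhibitor of NRF2, passed on its brightest probe set only, as did Abcc1, each having 1 other above background. The call of Keap1 ended without control 2, control 3 or shSep15 2 (limma adjusted p from 0.0544 to 0.0750), and that of Abcc1 without any 1 array other than control 2 (0.0569 to 0.143).

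**Figure D4:**
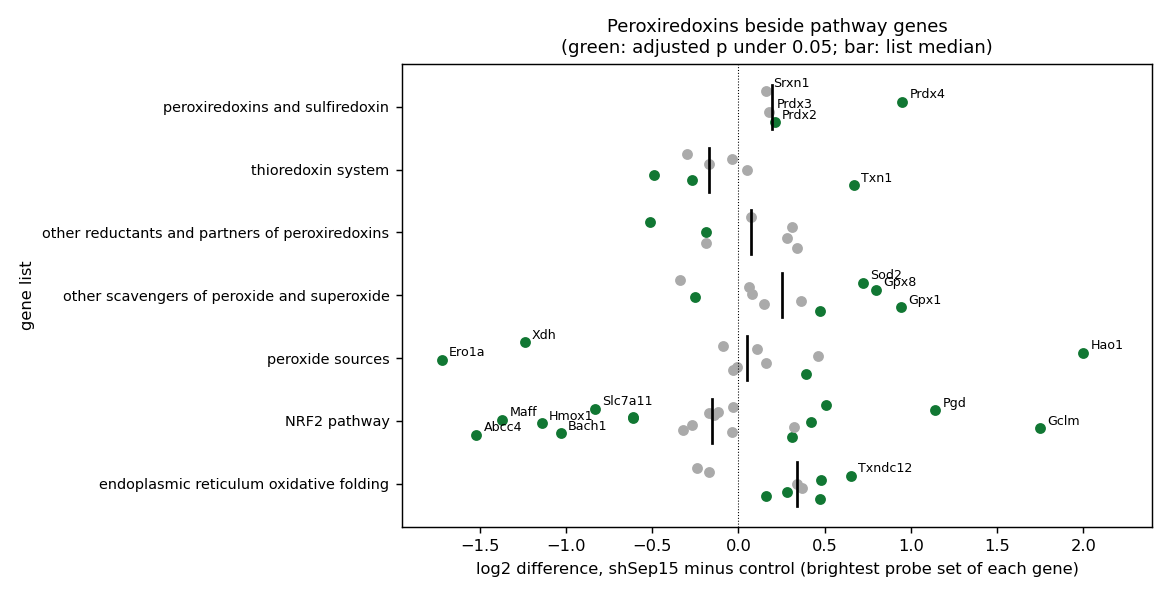
Log2 difference, shSep15 minus control (horizontal axis), of the brightest probe set of each gene in the 4 family members with their own probe sets and in 6 lists of related genes (vertical axis); each point is a gene, green where adjusted p is under 0.05, and the bar is the list median. Prdx4 at 0.95 lies apart from Prdx2, Prdx3 and Srxn1, which lie between 0.16 and 0.21.

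The genes whose levels followed Prdx4 most closely were sought among 10866 genes above background, as the smallest Euclidean distance between log2 values over the 6 arrays after each gene's mean was subtracted. The 5 nearest were Polh at 0.077, Gtpbp3 at 0.091, Rnf26 at 0.126, Chd1l at 0.127 and Tmtc4 at 0.154. They lie on chromosomes 17, 8, 9, 3 and 14. Polh and Rnf26 were read by probe sets of the kind whose probes may match other transcripts. Polh read 8.73, 9.16 and 9.03 in control and 9.93, 9.90 and 10.08 in shSep15 arrays. As in Prdx4, control 1 was the lowest control array and shSep15 3 the highest shSep15 array in all 5. Since the 5 were picked for closeness on these same arrays, this shared order follows from the choice. The 6 arrays include the difference between the groups, so this likeness is mostly that of a rise of similar size.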

How the data were processed

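Total RNA of 6 samples of CT26 cells was extracted with TRIzol, labelled with biotin and hybridised to Affymetrix Mouse430_2 arrays, per the labels' protocols. For every probe set the deposited table gives a log2 value on each array, computed with RMA, per the submitters' processing notes. Its version is not given in the sources used here. RMA gives all arrays the same distribution, so a shift in total RNA would be hidden, and it compresses differences of dim probe sets. The number of arrays limits the precision.

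Sample titles gave the groups. The table lists 45101 probe sets, and 45037 were tested after 64 array controls had been dropped; 34945 had 1 symbol, 932 several and 9160 none in the platform annotation, and symbols were updated by gene identifier through RefSeq (GRCm38.p6; 34741 found). With no build named for the arrays, RefSeq gave names and gene order only. Genes took the value of their brightest single-symbol probe set. The fit used limma 3.58.1 in R 4.3.3 with lmFit and a trended eBayes, and group as the only term, two-sided, adjusted by Benjamini-Hochberg over 45037 probe sets at 0.05; the script was tested on simulated data. Of each list, up to 4 called genes with the largest differences were named, with all members, Selenof and the 5 genes most like the most changed member. The members and lists were chosen with earlier results of these data known. The alternatives were eBayes without the trend, arrays shifted to 1 median, only probe sets above background, the replicate number as a block, each array left out, the mean of a gene's probe sets, and no _x_at or _s_at probe sets. Promoters were those of RefSeq, GRCm38.p6, found for 6 of the 7 genes.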

Additional observations from a re-analysis of the deposited data

How the results depend on the processing

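The rise of Prdx4 and the fall of Selenof kept direction and call under every alternative run. The Prdx2 difference kept its direction but lost its call without the trend (log2 0.21, limma adjusted p = 0.134), with arrays shifted to 1 median (0.21, 0.0736), with the replicate block (0.21, 0.0523) and as the mean of its probe sets (0.03, 0.850), one of which is under background; without any 1 array it was 0.17 to 0.24. The count of family genes that rose was then 1 in place of 2 under these 4 settings and in each fit without 1 array (1 to 1). The probe sets of Prdx1 and Gm21399 called higher numbered 3 to 5 with 1 array left out. Thioredoxin system genes called lower numbered 1 without the trend, 1 with shifted arrays, 1 with the replicate block, 4 among probe sets above background and 4 as means of probe sets, against 2, and 0 to 3 with 1 array left out. The other reductants called lower numbered 1 without the trend and 0 to 1 with 1 array left out, and 1 was called higher as the mean of probe sets. The other scavengers called lower numbered 0 without the trend, 0 as means of probe sets and 0 to 1 with 1 array left out. Peroxide sources called higher numbered 1 with shifted arrays and 1 to 2 with 1 array left out, NRF2 pathway genes 3 to 4 against 5, and folding enzymes 3 to 5 against 5; 1 folding enzyme was called lower among probe sets above background. The causes were not tested. The same replicate numbers appear in both groups, but the deviations of same-numbered arrays correlated at 0.399, −0.201 and −0.0552, so the numbers were not taken as pairs. Dim probe sets of Prdx2 and Prdx4 under background limit what can be read from them, and no difference tested reversed its direction under the alternatives run.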
